A study of Homo sapiens with 16 samples.

Results

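The serum-induced immediate early genes FOS, FOSB, FOSL1, JUN, JUNB, EGR1, EGR2, EGR3, SRF and MYC were examined at their transcription start sites (TSS) for the histone modification H3K9me2. Every TSS window whose gene symbol was one of these 10 was taken, and each alternative start was kept apart. This gave 55 of the 272902 windows in the table, or 43 of the 237274 windows with distinct coordinates, since some transcripts share a start. The members were chosen by name and not by a rule on the counts, though earlier results of these data were known.

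Chromatin came from BJ-5ta cells, an established human fibroblast line immortalized with hTERT, the catalytic subunit of telomerase. Wild-type cells were compared with ΔLEO1 cells, which are 1 clone (clone 13) in which CRISPR/Cas9 removed the start of LEO1, the gene of a PAF1 complex subunit. Both genotypes were grown in 10% serum or were held in 0.1% serum for 10 days to make them quiescent, and both carried hTERT. Per condition there were 2 ChIP libraries and 2 input libraries, A and B. The sample labels call the antibody H3, while the methods of the study describe an antibody against H3K9me2. Input is sonicated chromatin sequenced without antibody.

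Replicate A of the ΔLEO1 ChIP in 10% serum was left out, since 54 of its reads fell in TSS windows and 0 in windows of these genes. ΔLEO1 cells in 10% serum were thus represented by 1 ChIP library. The other 7 ChIP libraries held between 2153836 and 3696942 reads in TSS windows, with a median of 6 to 11 reads per window. The 8 inputs held between 3267811 and 9238282 reads, with a median of 12 to 35 per window. A window spans 2000 bp around an annotated start. No source says whether A and B were separate cultures, so p-values measure the spread between these libraries, which may be technical.

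Immediate early genes are transcribed within minutes when serum is given back to resting fibroblasts, before any new protein is made. Growth factor receptors signal through the RAS-ERK cascade and through actin dynamics to the serum response factor SRF, which binds a sequence called the CArG box together with ternary complex factors such as ELK1 or with myocardin-related cofactors. The FOS and JUN proteins pair to form the AP-1 transcription factor, the EGR proteins are zinc finger factors, and MYC drives growth and division. H3K9me2 is a mark of silent chromatin that is usually low at CpG-rich promoters.

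The stretches upstream of 5 starts are shown, with 30 bases before the inner start of EGR2. EGR1, SRF and that inner start are shown for their CArG boxes. JUN and the upstream start of EGR2 stood at the ends of the range of ChIP reads described further on. FOS is shown as the best known gene of the set. All are from RefSeq, assembly GRCh38.p14, written 5′ to 3′ on the strand of the gene, with CArG boxes in capitals. EGR1 (chr5:138465229-138465478, plus strand) and SRF (chr6:43171019-43171268, plus strand) each held 2 CArG boxes. FOS (chr14:75278578-75278827, plus strand) and JUN (chr1:58784048-58784297, minus strand) held none within these 250 bases. Sequence further upstream was not searched, so elements there would not be seen. EGR2 is shown at its upstream start (chr10:62819168-62819417, minus strand) and, as 30 bases only, around the CArG box before its inner start (chr10:62816418-62816447, minus strand).
EGR1: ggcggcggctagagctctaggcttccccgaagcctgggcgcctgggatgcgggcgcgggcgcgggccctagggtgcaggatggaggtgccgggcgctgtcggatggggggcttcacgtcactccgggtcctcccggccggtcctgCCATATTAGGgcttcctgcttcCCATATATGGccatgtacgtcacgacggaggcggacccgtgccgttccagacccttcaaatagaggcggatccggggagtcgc
SRF: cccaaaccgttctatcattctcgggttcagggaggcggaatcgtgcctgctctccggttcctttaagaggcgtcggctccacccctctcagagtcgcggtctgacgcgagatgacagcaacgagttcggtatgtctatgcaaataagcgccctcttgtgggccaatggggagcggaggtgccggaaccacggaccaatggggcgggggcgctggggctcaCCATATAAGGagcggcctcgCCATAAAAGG
FOS: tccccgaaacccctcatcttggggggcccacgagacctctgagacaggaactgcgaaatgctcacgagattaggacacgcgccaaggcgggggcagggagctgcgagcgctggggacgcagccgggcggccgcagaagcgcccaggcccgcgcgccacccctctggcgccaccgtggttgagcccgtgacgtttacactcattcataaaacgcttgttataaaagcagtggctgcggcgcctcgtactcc
JUN: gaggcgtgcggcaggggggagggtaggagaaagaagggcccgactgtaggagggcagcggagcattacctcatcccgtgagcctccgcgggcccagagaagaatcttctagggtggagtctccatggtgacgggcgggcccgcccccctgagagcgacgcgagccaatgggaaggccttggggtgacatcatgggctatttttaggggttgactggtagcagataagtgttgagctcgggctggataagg
EGR2 upstream start: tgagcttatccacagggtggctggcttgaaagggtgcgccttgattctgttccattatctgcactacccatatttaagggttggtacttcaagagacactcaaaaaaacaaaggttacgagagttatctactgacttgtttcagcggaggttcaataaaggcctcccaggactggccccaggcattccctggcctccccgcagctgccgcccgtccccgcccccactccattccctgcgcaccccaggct
EGR2 inner start: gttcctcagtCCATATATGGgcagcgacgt

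Promoter sequences of 300 bases were found for 7 of the 10 genes, JUN, EGR1, SRF, EGR2, FOS, JUNB and FOSB, with 10 starts between them. A CArG box lay in 3 of these 10 promoters, against 1.29% of all 35116 promoters in the table. The first base of the box stood 105 and 83 bases before the start of EGR1, 30 and 10 bases before that of SRF and 71 bases before the inner start of EGR2. Promoters with at least 2 CArG boxes numbered 11 in the whole table, and EGR1 and SRF were 2 of them. TGACGT, the core of the site of the CREB factors, lay in 4 of the 10 promoters against 7.98% of all. TGANTCA, 1 form of the AP-1 site, lay in 0 of 10 against 7.71%. Other forms of the AP-1 site were not searched. TATAAA lay in 4 of 10 against 11.5%, CCAAT in 3 of 10 against 34.6% and GGGCGG in 6 of 10 against 45.0%. Both strands were searched, and a CArG box can share bases with TATAAA. These matches describe letters in the reference and are not measured binding.

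The first comparison asked how much H3K9me2 ChIP signal the starts of these genes carried relative to input. ChIP reads were below input at all 43 distinct windows in sign, and 40 of the 43 were called lower by edgeR, with a median log2 difference of -1.74. Over all 237580 windows tested, 39.1% were called lower and 75.5% were called in either direction, with a median log2 difference of -0.05. Of the gene-start windows, those centred nearest to the listed start of the gene, 9 of 10 were called lower. The exception was EGR2. Their median log2 difference was -1.92, against 0.36 over the 36321 gene-start windows of all genes tested, of which 30.7% were called lower and 48.2% higher. A call is a Benjamini-Hochberg adjusted p-value under 0.05, and fitted differences include a prior count of 2, which pulls those of windows with few reads toward 0. Fold values below are therefore also given from the reads themselves, with exact 95% intervals that cover counting error only. They use library sizes after TMM scaling over ChIP and input together. That scaling places the middle of all windows near 0, so each fold is relative to the typical TSS window. The SE given with a fitted difference is the size of that difference divided by the square root of its edgeR F statistic. It is approximate, and where reads are few, as at JUN, it is narrower than the counting interval. In bulk chromatin, fewer cells with the mark and less of the mark in each cell cannot be told apart. The amount of histone H3 at a start was not measured separately, so less H3 there cannot be told apart either.

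**Figure D1:**
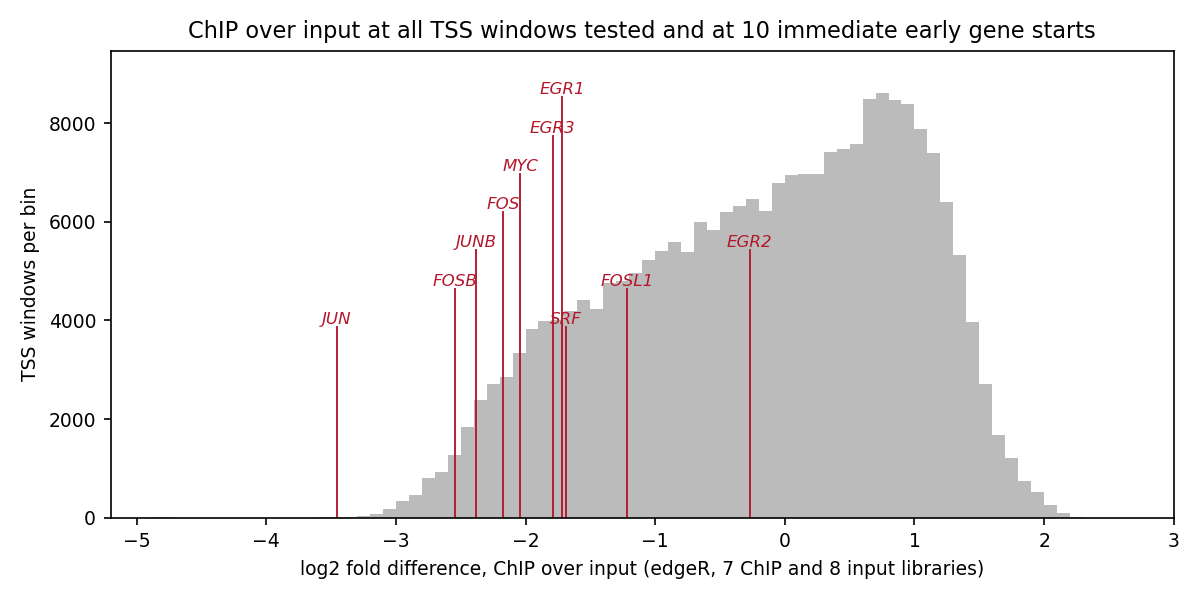
Histogram of the log2 difference of ChIP over input for all TSS windows tested (grey bars, windows per bin), with the gene-start windows of the 10 immediate early genes as red lines whose heights carry no value. JUN stood at -3.46 and EGR2 at -0.27, and the other 8 lay between them.

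Among the AP-1 genes, JUN had the fewest ChIP reads. JUN encodes the main partner of the FOS proteins. Its window (chr1:58783047-58785047) held 1, 0, 0, 1, 0, 1 and 0 ChIP reads in wild type in 10% serum (A, B), wild type in 0.1% serum (A, B), ΔLEO1 in 10% serum (B) and ΔLEO1 in 0.1% serum (A, B). No condition had more than 1 read in a library. The 8 inputs held 17 to 64 reads there, with a median of 38.5. Scaled to library size after TMM, 3 ChIP reads against 307 input reads made a level 34.4-fold lower in ChIP (interval 11.7 to 168). The fitted log2 difference was -3.46 ± 0.31 (SE), with an edgeR Benjamini-Hochberg adjusted p of 1.07e-23, and 0.0253% of all windows tested had a lower value. It overlaps 8 windows of LINC01135 and ENSG00000290013, so reads at this start are shared with these neighbours.

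FOSB encodes a FOS family partner of the JUN proteins. At its start (chr19:45466996-45468996) the 7 ChIP libraries in the same order held 0, 1, 3, 1, 2, 3 and 0 reads, and the inputs 15 to 50 reads with a median of 36. The level was 9.81-fold lower in ChIP (interval 5.26 to 20.7), and the fitted log2 difference was -2.55 ± 0.27 (SE). At the start of JUNB (chr19:12790486-12792486), a JUN family gene, the libraries held 3, 1, 1, 3, 2, 3 and 0 reads, against 5 to 58 in input. This made 8.14-fold less in ChIP (interval 4.69 to 15.5), a fitted log2 difference of -2.38 ± 0.26 (SE). A window of HOOK2 overlaps the JUNB window. At both genes each condition held a library with 1 read or none, or a single library with 2.

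FOS, the prototype of the group, held 1, 2, 3, 1, 3, 2 and 1 ChIP reads at its start (chr14:75277828-75279828), against 9 to 58 in input, a level 7.24-fold lower (interval 4.16 to 13.8). Its fitted log2 difference was -2.18 ± 0.26 (SE). FOSL1, which encodes FRA-1, a FOS family protein that appears later after serum and stays longer, held more. At its start (chr11:65899573-65901573, 28 bp from the listed start) the libraries held 6, 3, 4, 5, 4, 5 and 7 reads against 19 to 55 in input. This was 2.66-fold lower in ChIP (interval 1.86 to 3.92), a fitted log2 difference of -1.22 ± 0.23 (SE). The lowest FOSL1 library, with 3 reads, equalled the highest FOS libraries. For FOSB, JUNB, FOS and FOSL1, the p-values of edgeR after Benjamini-Hochberg adjustment were 1.05e-17, 6.24e-17, 9.41e-15 and 3.49e-07.

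MYC, which encodes a transcription factor of cell growth, held 4, 2, 2, 1, 1, 3 and 2 ChIP reads at its start (chr8:127734434-127736434), against 15 to 47 in input. The level was 5.33-fold lower (interval 3.17 to 9.68) and the fitted log2 difference -2.04 ± 0.28 (SE). SRF itself (chr6:43170269-43172269) held 4, 4, 1, 4, 3, 3 and 0 reads against 13 to 51 in input, 4.28-fold lower (interval 2.68 to 7.23), with a fitted log2 difference of -1.69 ± 0.26 (SE). The intervals of MYC and SRF overlapped, and so did their values in single libraries.

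The EGR genes followed, with the highest ChIP counts at EGR2. EGR1 (chr5:138464479-138466479) held 4, 3, 5, 0, 2, 2 and 4 ChIP reads against 13 to 60 in input, 4.20-fold lower (interval 2.66 to 6.995) with a fitted log2 difference of -1.71 ± 0.26 (SE). EGR3 (chr8:22692480-22694480) held 3, 1, 4, 1, 2, 1 and 1 reads against 11 to 37 in input, 5.09-fold lower (interval 2.91 to 9.73) with a fitted log2 difference of -1.79 ± 0.28 (SE). EGR2, which encodes a factor best known from nerve myelination and lymphocytes, was different at its listed start (chr10:62818167-62820167). It held 7, 8, 12, 13, 4, 15 and 8 ChIP reads, so that 6 of 7 libraries had at least 7 reads, against 8 to 49 in input. This was 1.11-fold lower (interval 0.844 to 1.49), and the fitted log2 difference of -0.27 ± 0.22 (SE) was not called (edgeR Benjamini-Hochberg adjusted p = 0.255). Adjusted p-values from the same fit were 7.48e-12 for MYC, 5.65e-10 for SRF, 5.55e-10 for EGR1 and 2.02e-09 for EGR3.

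In the order of the fitted differences, JUN was followed by FOSB, JUNB, FOS, MYC, EGR3, EGR1, SRF, FOSL1 and EGR2. The values from FOSB to SRF lay between -2.55 and -1.69 with standard errors of 0.26 to 0.28, and no neighbours in that stretch differed beyond their standard errors. The step from FOSL1 to EGR2 was larger than both of these approximate standard errors, and the counting intervals of these genes did not overlap. In the plot of CPM (reads scaled to a common library size, after TMM) in every library, the input values of the 10 genes lay in 1 band, while the ChIP values were highest at FOSL1 and EGR2.

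**Figure D2:**
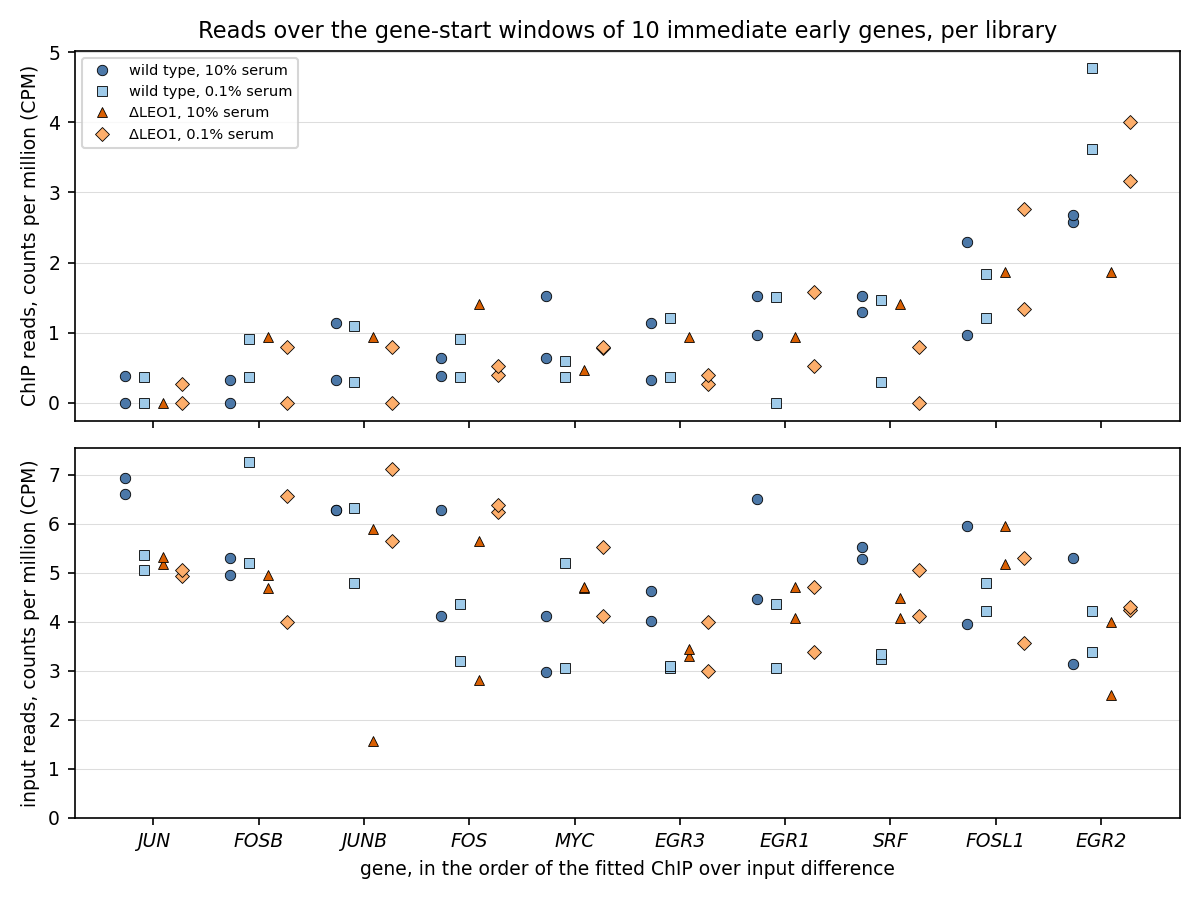
ChIP (top) and input (bottom) CPM at the gene-start windows of the 10 genes, each point 1 library, coloured by genotype and serum. JUN lay at 0 in 4 of 7 ChIP libraries, and EGR2 held the most ChIP reads, 67 over all 7 libraries.

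The alternative starts within a gene were then compared as a description, since neighbouring windows overlap and share reads. At EGR2, the ChIP signal differed between the upstream and the inner starts. The inner start 2801 bp downstream (chr10:62815366-62817366), the one preceded by a CArG box, held 3, 4, 0, 2, 2, 8 and 5 ChIP reads, 24 in all, against 67 at the upstream start. Its level was 3.84-fold below input (interval 2.52 to 6.09), with a fitted log2 difference of -1.83 ± 0.25 (SE), and these 2 windows do not overlap. The upstream promoter held 9 CpG dinucleotides and the inner promoter 30, while a RefSeq start that lies between them, inside the upstream window, held 41. No window was centred on that RefSeq start. A different start between them, 508 bp from the upstream start, held 55 ChIP reads and a log2 difference of -0.62 ± 0.22 (SE).

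At EGR3 the reads changed in the other direction along the gene. ChIP reads over the 7 libraries numbered 13 at the listed start, 15 at 302 bp, 32 at 763 bp, 49 at 1066 bp and 64 at 1256 bp downstream. Fitted log2 differences went from -1.79 to -0.02, and the windows at 1066 and 1256 bp were the other 2 that were not called, with p-values of 0.206 and 0.917 in edgeR after Benjamini-Hochberg adjustment. Input reads stayed between 188 and 202 over these 5 windows. A window of ENSG00000289521 overlaps windows of EGR3, as do windows of ENSG00000289267 at EGR1 and of CASC11 at MYC.

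FOS showed a smaller change of this kind, from 13 ChIP reads at its listed start to 46 at 1365 bp, with log2 differences from -2.18 to -0.95. FOSB went from 10 reads to between 22 and 25 at the 5 starts from 1880 bp onward. MYC stayed between 13 and 19 reads over 9 starts spread over 2187 bp, and FOSL1 between 28 and 34 reads over 3 starts. JUN had 2 starts 1 bp apart with the same 3 reads, and EGR1, JUNB and SRF had 1 distinct window each.

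**Figure D3:**
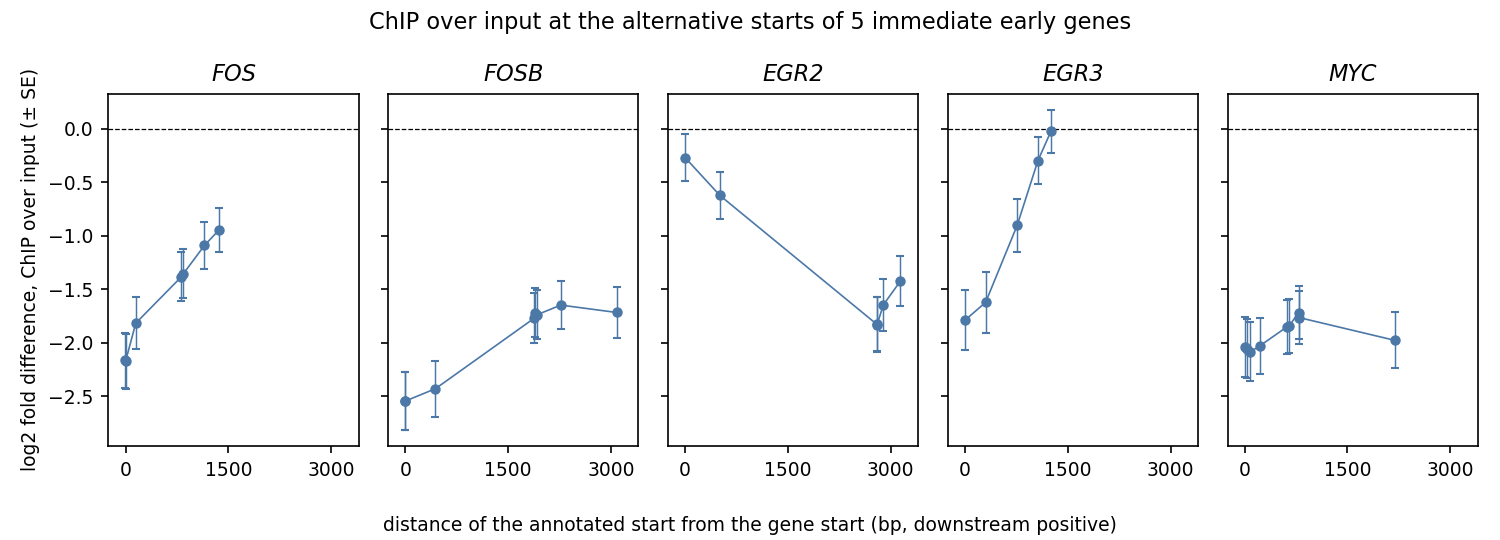
Fitted log2 difference of ChIP over input (± SE) against the distance of each annotated start from the gene start, for the 5 genes with starts furthest apart. EGR3 went from -1.79 to -0.02, EGR2 from -0.27 to -1.83 at its inner start, and MYC from -2.04 to -1.98 at its last start.

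The surroundings of the genes were described within 100 kb, from windows of other genes that overlap no member window. Median log2 differences of these neighbours ranged from -1.55 around FOSL1 to 0.33 around JUN. Of the 100 neighbouring windows of FOSL1, 82 were called lower in ChIP and 10 higher. JUN had 16 neighbouring windows, of which 2 were called lower and 5 higher, so the start with the fewest ChIP reads lay among neighbours with the highest median. EGR2 had 3, of which 1 was called lower and 1 higher. No member window overlapped a peak region of the second table. The nearest peak centre was between 40.3 kb (MYC) and 486 kb (FOSB) from the gene start, with a median of 167 kb, against 109 kb over all gene starts.

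CpG content was set beside the ChIP values for the starts with both a promoter sequence and a window centred on it. The counts of CpG dinucleotides in 300 bases were 16 for JUN, 23 for SRF and FOSB, 29 for JUNB, 30 for FOS and 33 for EGR1, against a median of 14 over all promoters. Over 18767 promoters, the median log2 difference of ChIP over input was 0.68 with 0 to 4 CpG, -0.46 with 15 to 19, -0.73 with 20 to 24, -0.89 with 25 to 29 and -1.08 with 30 or more. JUN, FOSB, JUNB, FOS, SRF and the inner start of EGR2 lay below the lower quartile of their class. EGR1, at -1.71, lay within the quartiles of its class, and so did the upstream start of EGR2.

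**Figure D4:**
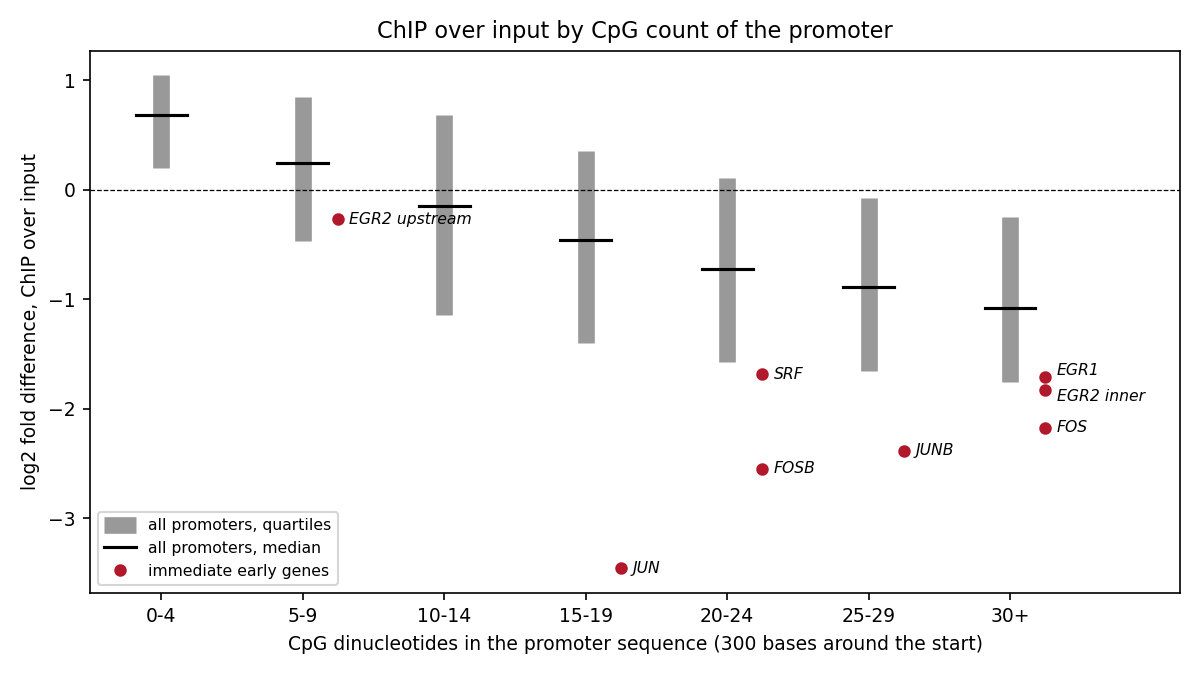
Log2 difference of ChIP over input by the number of CpG dinucleotides in the promoter sequence, with the quartiles (grey bars) and median (black lines) of all promoters in each class and the immediate early genes as red points. Of the 8 points, 6 lay below the lower quartile of their class, and EGR1 and the upstream start of EGR2 did not.

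Other genes of serum signalling were taken from lists of gene names, at their gene-start windows and in the same fit. Of 34 other early response genes measured, 29 were called lower in ChIP and 4 higher, with a median log2 difference of -1.98. The largest differences below input were at IER2 (-3.03), FOSL2 (-2.67), another FOS family gene, and DUSP1 (-2.66), a phosphatase of MAP kinases. ATF3 (0.80), a stress-induced factor of the same leucine zipper class, EGR4 (0.71), the fourth EGR gene, and ARC (0.59), an early gene of neurons, were higher in ChIP than input. EGR4 held 101 ChIP reads over the 7 libraries and ATF3 138, against 67 for EGR2.

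Of 6 partners of SRF, 5 were called lower with a median of -0.96, led by the ternary complex factor ELK4 (-2.22) and the actin-regulated cofactor MRTFA (-1.66). Of 15 SRF targets of the cytoskeleton, 11 were called lower and 0 higher, with a median of -1.56, led by the actin gene ACTG1 (-2.78). Of 19 genes of growth factor signalling, 16 were called lower and 0 higher, with a median of -1.33, led by ROCK1 (-2.43) and ROCK2 (-2.31), kinases that act on the actin cytoskeleton. Of 11 dimer partners and regulators of the member proteins, 9 were called lower and 1 higher, with a median of -1.61. NAB2, a corepressor of the EGR proteins, had the lowest value of these (-2.65), and BATF, a leucine zipper factor of lymphocytes, was higher in ChIP (0.57).

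Fibroblast genes were called lower in 13 of 14 and higher in 1, with a median of -1.78, and housekeeping genes were called lower in 12 of 15, with a median of -1.74. Genes of other tissues were called lower in 4 of 20 and higher in 7, with a median of 0.35, from INS (-1.47) to SYN1 (1.62). The 10 immediate early genes, with 9 called lower and a median of -1.92, thus had counts near those of the fibroblast and early response lists. In every other list except that of other tissues, housekeeping genes included, most genes were also called lower. These are counts and medians side by side, with no test between lists.

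The next comparisons asked whether serum or genotype changed the ChIP signal at these starts. Reads were too few for most windows to be tested. Of the 43 distinct windows, 4 passed the filter on low counts, the upstream start of EGR2, the EGR2 start 508 bp from it, the EGR3 start at 1256 bp and the FOSB start at 2269 bp. Since the smallest group had 1 library, a single library could bring a window over the filter. Libraries in 0.1% serum did so at both EGR2 starts, and libraries in 10% serum at the EGR3 and FOSB starts. Of these 4, 0 were called by edgeR in any of the 5 ChIP comparisons, and 0 by DESeq2. In wild type, 0.1% against 10% serum, 0.27% of 159524 windows were called and 0 of the 4 had an unadjusted p under 0.05. For ΔLEO1 against wild type, 0.347% of windows were called in 0.1% serum and 0.0295% in 10% serum, and again 0 of the 4 had an unadjusted p under 0.05. For serum in ΔLEO1, 0.0633% of windows were called and 1 of the 4, the FOSB start, had an unadjusted p under 0.05, as did 14795 of the 159524 windows. That FOSB window had its highest level in the single ΔLEO1 library in 10% serum, which is 1 side of this comparison and through which it passed the filter, so its p is no support for a difference. For the interaction of genotype and serum, 0.0% of windows were called by edgeR, with 9012 at an unadjusted p under 0.05 and 0 called by DESeq2, and none of the 4 was under 0.05. The comparisons with ΔLEO1 in 10% serum, the interaction included, rest on 1 library on that side, which was assumed to vary like the others. TMM scaling places the middle of the differences near 0, so a shift of the mark over all windows cannot be seen here.

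At the upstream start of EGR2, the 10% serum libraries of wild type had 2.63 ± 0.0650 CPM (SD, n = 2) and its 0.1% serum libraries 4.20 ± 0.817 CPM. Both 0.1% serum libraries lay above both 10% serum libraries. This window passed the filter on low counts through 0.1% serum libraries, where it was higher. This order and the serum p-values below are therefore no support for a difference. The fitted log2 difference was 0.55 ± 0.40 (SE), with an edgeR Benjamini-Hochberg adjusted p of 0.706. ΔLEO1 had 1.87 CPM in 10% serum (1 library) and 3.58 ± 0.591 CPM in 0.1% serum (SD, n = 2), a log2 difference of 0.76 ± 0.59 (SE) with an adjusted p of 0.733. The log2 difference of ΔLEO1 from wild type was -0.15 ± 0.37 (SE) in 0.1% serum and -0.37 ± 0.62 (SE) in 10% serum, both smaller than their standard errors. The comparisons of serum and of genotype share libraries, so these values are not independent of each other. Without the filter on low counts, and with all 43 windows tested, 0 were called in any of the 5 comparisons.

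Windows with an unadjusted p under 0.05 in the unfiltered fit were few and are given with their reads. For serum in wild type there was 1 of 43, against 8.02% of all 242348 windows, the EGR3 start at 763 bp. It held 7 and 8 ChIP reads in 10% serum and 1 and 3 in 0.1% serum, a log2 difference of -1.28 ± 0.50 (SE), unadjusted p = 0.0101 and edgeR Benjamini-Hochberg adjusted p = 0.427. For ΔLEO1 against wild type in 0.1% serum there were 3 of 43, against 9.13% of all windows, and all 3 were overlapping windows at the inner starts of EGR2. The window at 2801 bp held 8 and 5 reads in ΔLEO1 and 0 and 2 in wild type, a log2 difference of 1.43 ± 0.53 (SE), unadjusted p = 0.00676 and edgeR Benjamini-Hochberg adjusted p = 0.293. In 10% serum the same window held 2 reads in ΔLEO1 and 3 and 4 in wild type, and the interaction at this window had an unadjusted p of 0.0510. The shares at an unadjusted p under 0.05 among the members were below those of all windows in these comparisons. The FOSB start at 2269 bp held 8 reads in ΔLEO1 in 10% serum and 4 and 1 in 0.1% serum, against 5 and 2 in wild type in 10% serum. Comparisons with ΔLEO1 in 10% serum rest on 1 library, so this window is given by its reads alone.

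To lessen the limit of low counts, reads were summed over the 10 gene-start windows. Each ChIP library held 23 to 38 reads there, 21.7% to 33.8% of what 10 windows of average count would hold in that library. Each input held 125 to 519 reads, or 104% to 153%. After TMM scaling, wild-type ChIP gave 10.3 ± 3.21 CPM in 10% serum and 10.8 ± 0.324 in 0.1% serum (SD, n = 2). ΔLEO1 ChIP gave 10.8 in 10% serum (1 library) and 9.61 ± 0.734 in 0.1% serum (SD, n = 2). The ratio of 0.1% to 10% serum in wild type was 1.06 with a 95% counting interval of 0.734 to 1.54, and the ratio of ΔLEO1 to wild type in 0.1% serum was 0.901 (0.624 to 1.30). In 10% serum the latter was 1.06 (0.625 to 1.75), and the ratio of serum levels in ΔLEO1 was 0.902 (0.550 to 1.53). In 0.1% serum both wild-type libraries, at 10.6 and 11.0, lay above both ΔLEO1 libraries, at 10.1 and 9.09. All 4 intervals include 1, and the counts do not exclude ratios anywhere within them. Spread between libraries is not part of these intervals. Without EGR2, whose start held 67 of the 207 ChIP reads, the 4 ratios were 0.882, 0.912, 1.18 and 0.680, and their intervals also include 1.

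**Figure D5:**
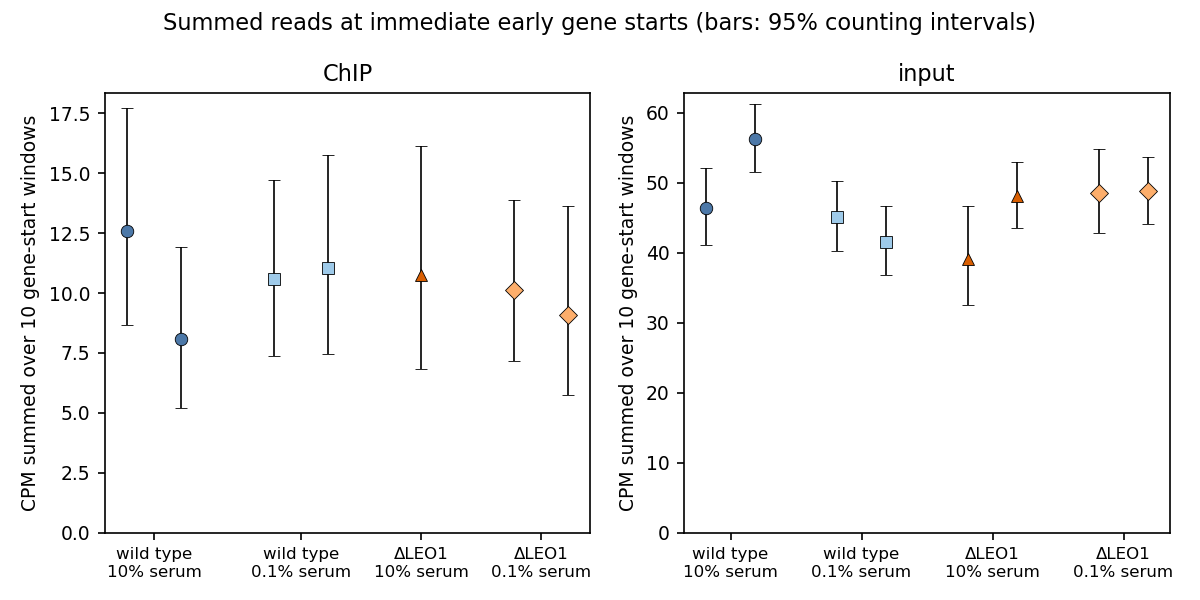
CPM summed over the 10 gene-start windows in each ChIP (left) and input (right) library, with exact 95% counting intervals as bars. ChIP libraries lay between 8.07 and 12.6 and inputs between 39.1 and 56.2, and the counting intervals of all 7 ChIP libraries overlapped.

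The input gave the level of background DNA at these starts. Summed input was 51.3 ± 6.96 CPM in wild type in 10% serum, 43.3 ± 2.46 in wild type in 0.1% serum, 43.6 ± 6.32 in ΔLEO1 in 10% serum and 48.6 ± 0.121 in ΔLEO1 in 0.1% serum (SD, n = 2 each). The ratio of 0.1% to 10% serum in wild-type input was 0.827 (95% counting interval 0.743 to 0.921), and both 10% serum libraries, at 46.4 and 56.2, lay above both 0.1% serum libraries, at 45.0 and 41.5. The ratio of serum levels in ΔLEO1 input was 1.07 (0.951 to 1.20), and the ratio of ΔLEO1 to wild type was 1.12 (1.01 to 1.26) in 0.1% serum and 0.872 (0.780 to 0.974) in 10% serum, so these differences between inputs had no common direction. The wild-type replicates in 10% serum differed from each other by more than the gap between the group means. In the fit of the 8 inputs all 43 windows were tested and 0 were called for genotype or for serum. Over all 238006 windows, 0.0176% were called for genotype and 0.0% for serum, where 17532 had an unadjusted p under 0.05 and DESeq2 called 0. Of the 43 member windows, 4 overlapping MYC windows had an unadjusted p under 0.05 for genotype, against 13409 of the 238006, and 0 member windows for serum. At the MYC start 650 bp downstream, ΔLEO1 input was 0.42 ± 0.19 (SE) higher on the log2 scale, with an edgeR Benjamini-Hochberg adjusted p of 0.855.

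The ratio of ChIP to input over the 10 gene-start windows was then taken within each condition. As for the fold values above, it used library sizes after TMM over ChIP and input together. ChIP was 4.56-fold below input (95% counting interval 3.49 to 6.06) in wild type in 10% serum and 3.70-fold (2.86 to 4.86) in wild type in 0.1% serum. In ΔLEO1 it was 3.84-fold below (2.53 to 6.11) in 10% serum and 4.68-fold (3.59 to 6.18) in 0.1% serum. ChIP was thus below input at these starts in all 4 conditions, and the 4 intervals overlapped. Over all libraries, 207 ChIP reads against 2612 input reads made 4.24-fold (3.68 to 4.91).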

How the data were processed

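ChIP and input DNA were sequenced and, per the submitters' processing notes, handled with bcl2fastq 2.20.0.422, STAR 2.7.10a and HOMER on genome builds hg38 and dm6. The authors deposited raw read counts, whole numbers without scaling, for TSS windows and for peak regions. Fly spike-in reads were not used here. Of 39334 gene symbols matched to RefSeq GRCh38.p14, 95.5% showed a TSS window with its centre at most 1 kb from the listed start. Coordinates of windows are those of the tables, and gene models, peak calling and strand use of the counting are not given in the sources used here.

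Counts were tested with edgeR 4.0.16 in R 4.3.3 by the two-sided quasi-likelihood F-test, with TMM scaling, filterByExpr (minimum count 10) and a prior count of 2, in 3 fits, of 7 ChIP libraries, of 8 inputs and of all 15. Benjamini-Hochberg adjustment ran over all windows tested in a comparison. Replicate correlations (Pearson's r, across windows) were 0.702 to 0.756 in the ChIP groups with 2 libraries. The alternatives were no filter, no TMM, peak-table totals, DESeq2 1.42.0, a replicate block, all libraries, only the libraries compared, distinct windows and leaving out each library. The code was tested on simulated data. Intervals are exact and cover counting error alone, because they come from read counts without a term for spread between libraries. No molecular identifiers mark independent molecules, so reads copied from 1 molecule would make them too narrow.

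All members were named, other windows of a member were given by range and any called or singled-out window by its reads, and genes of other lists were named only where called, at most 3 in each direction. Windows singled out at an unadjusted p were chosen after their values were seen. The members and lists were chosen with earlier results of these data known.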

Additional observations from a re-analysis of the deposited data

How the results depend on the processing

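ChIP below input held at the 9 called gene-start windows under every alternative run, and member windows called lower numbered 40 under each other setting except 43 with peak-table totals as library sizes and 40 to 41 when single libraries were left out. Peak-table totals moved the median over all windows to -1.90 and that over the members to -3.34, and EGR2 at its upstream start was then called (-2.09), while DESeq2 gave -0.22 and -2.25. In all other comparisons 0 member windows were called under every alternative. For the ChIP comparisons, alternatives that kept the filter tested only 1 to 6 member windows, so 0 calls there say little. The fit without the filter tested all 43. Counts over all TSS windows moved more. With DESeq2, 0 were called for serum in wild type, genotype in 0.1% serum, genotype in 10% serum, serum in ΔLEO1 and genotype in input. With the near-empty library included these ChIP comparisons gave 5, 0, 0 and 0. Genotype in 0.1% serum gave 2209 with peak-table totals and 293 with only the libraries compared. Leaving out 1 library gave 7 to 157 for serum in wild type, 47 to 145 for genotype in 0.1% serum, 24 to 27 for genotype in 10% serum, 29 to 33 for serum in ΔLEO1, 0 to 162 for genotype in input and 0 to 100 for serum in input. In the ChIP comparisons each library left out lowered the count by over 1.5 times. For genotype in input, 0 were called without the 10% or 0.1% wild-type replicate A or the 0.1% ΔLEO1 replicate B, and 162 without the 10% ΔLEO1 replicate B. The cause of these moves was not tested, beyond the smaller number of libraries. Deviations of same-lettered libraries correlated at 0.00344 to 0.0175 between the 3 ChIP groups with 2 libraries (inputs were not checked). With so few reads per window, counting error could hide a shared effect, so this does not settle whether the letters A and B pair libraries. The replicate block gave 440, 573, 45 and 66 calls in the 4 ChIP comparisons in place of 431, 554, 47 and 101. Depth limits all comparisons of conditions, as windows of these genes held 0 to 15 ChIP reads per library.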
